A study of Oncorhynchus mykiss with 6 samples.

Results

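The 94 RNAs described here are predicted microRNAs (miRNAs) of rainbow trout (Oncorhynchus mykiss): rows of the study's table that carry a number in place of a family name and reached a mean of at least 10 TPM. They were chosen by their deposited TPM (here a row's count scaled to its library's total, with no length term) averaged over all 6 libraries, so their abundance is a description and not a finding. They are 94 of 989 predicted rows and of 1381 rows in all, beside 392 rows with Atlantic salmon miRNA names. Small RNA was sequenced from 6 female trout aged 1 year, from the head kidney, where bony fish make blood and immune cells. The control group was 3 fish at 18 °C and the heat-treated group 3 fish at 24 °C, with 1 library per fish, and no strain or other treatment is stated. The sources used here do not give the length of the heating. The comparison of the temperatures asks which small RNAs of this organ differ under heat stress.

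A miRNA is cut from the stem of a hairpin transcript by the enzymes Drosha and Dicer and then guides an Argonaute protein to matching mRNAs, which are repressed. A prediction program proposes a new miRNA where reads pile up on one or both arms of a genomic stretch that can fold into such a hairpin. Such a proposal can be a true miRNA of the species, a copy of a known one kept after the salmonid genome duplication, or a fragment of another RNA, and a name made of a number does not tell these apart. The rows carried no sequence, arm or position in the table used here, so no family, target or locus is given for any of them.

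Library depth was 3753036 to 5156793 counts, and 3 counts, taken as the floor of detection, equalled 0.579 to 0.807 CPM (TMM-scaled CPM, the unit of all levels per fish below). Beside the organ's label, miRNAs known from several cell types, of this organ and of others, were summed per library. No limit for passing was set, and all 6 libraries come from this organ. The sums thus describe the libraries and do not test the label. The leukocyte list (miR-142, miR-150 and miR-155) stood at 9590.0 to 17031 CPM at 18 °C and 13832 to 17472 CPM at 24 °C. Endothelial miR-126 stood at 81200.5 to 107154 CPM at 18 °C and 87082 to 101989.6 CPM at 24 °C, and the nephron list (miR-192, miR-194 and miR-204) at 2115 to 2993 CPM at 18 °C and 1763 to 2548 CPM at 24 °C. The striated muscle families (miR-499, miR-1, miR-206 and miR-133) had a sum that did not overlap between the groups, at 411 to 725 CPM at 18 °C and 1137 to 2326 CPM at 24 °C. Of the 6 tested rows of that list, miR-499a-5p alone did not overlap (150.3, 202 and 133 CPM at 18 °C and 727, 1029 and 1051 CPM at 24 °C), while miR-1-3p overlapped (70.2, 100.4 and 276 CPM at 18 °C and 193, 379 and 1037 CPM at 24 °C) and miR-499b-5p was lowest in heat fish 3 (200.1, 84.5 and 256 CPM at 18 °C and 178, 124 and 39.2 CPM at 24 °C). Liver miR-122 stayed at or under 81.6 CPM in every library. No row of these lists was at 0 in total, but some families planned for the lists had no annotated row here. These were miR-223 (leukocyte), miR-208 (striated muscle), and, for lists used below, miR-141 (epithelium) and miR-451 (red cell).

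Predicted miRNAs reached high abundance in a few cases. The most abundant, novel_13, averaged 18049 TPM and ranked 16 among all 1381 rows. It was followed by novel_1447 at rank 33 (7234 TPM), novel_1 at rank 39 (5045 TPM), novel_42 at rank 40 (4997 TPM) and novel_106 at rank 50 (2724 TPM). For scale, endothelial miR-126-3p, the most abundant row of the table, averaged 91526 TPM. The 94 held 5 of the 50, 12 of the 100 and 43 of the 200 most abundant rows. Of the 94, 7 reached 1000 TPM, 22 lay from 100 to under 1000 TPM, and 65 lay under 100 TPM, and the median was 34.1 TPM. The 7 above 1000 TPM took 84.3% of the counts of the 94, and the 65 under 100 TPM took 4.12%.

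**Figure D1:**
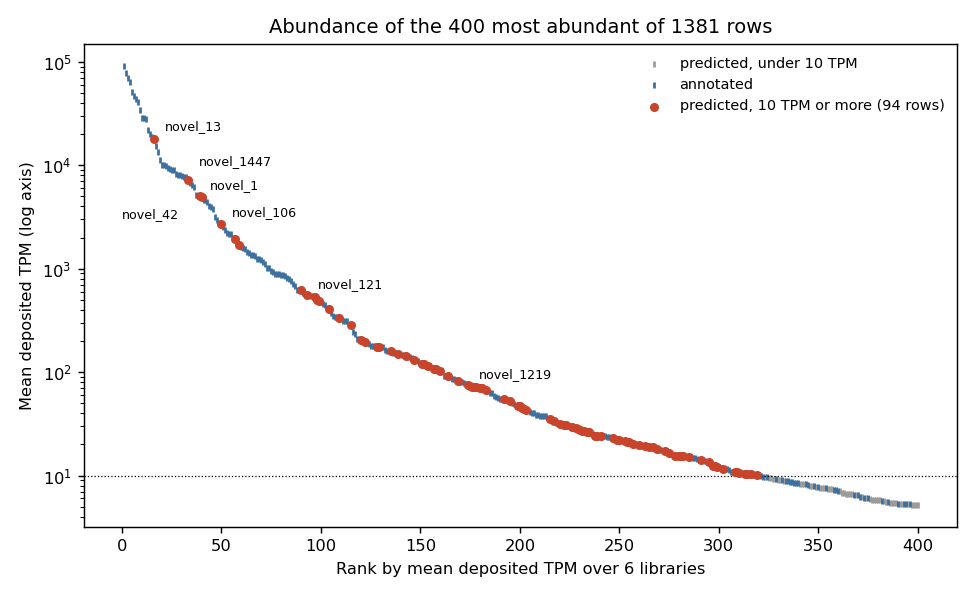
Mean deposited TPM over 6 libraries (log axis) against abundance rank for the 400 most abundant of 1381 rows; filled circles are the 94 predicted miRNAs, ticks the other rows, and the dotted line is the limit of 10 TPM. The predicted miRNAs begin at rank 16 (novel_13) and become more frequent after rank 90, with 12 among the first 100 rows and 43 among the first 200.

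Together the 94 took 5.42%, 4.91% and 4.31% of all counts in the 3 control fish and 4.64%, 5.62% and 4.77% in the 3 heat fish. Counting error was small beside these differences: the widest exact (Clopper-Pearson) 95% interval, that of control fish 2, ran from 4.89% to 4.93%. The groups overlapped, and their means of 4.88% ± 0.553 and 5.01% ± 0.531 (SD, n = 3 each) lay closer together than the fish of either group did (two-sided exact permutation p = 0.8, where 3 against 3 cannot go below 0.1). The sign of the difference turned without control fish 3 (-0.15 percentage points) or without heat fish 2 (-0.18). Most of this spread between fish moved with novel_13: without it the share was 3.13% ± 0.146 at 18 °C and 3.15% ± 0.209 at 24 °C. The 895 predicted rows under 10 TPM added 2.23% of the counts of all predicted rows.

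The 10 most abundant predicted miRNAs differed widely in how steady they were from fish to fish. novel_13 had 22928, 16429 and 13112 CPM at 18 °C and 15258, 28122 and 13226 CPM at 24 °C. Its highest value, in heat fish 2, was 2.14 times its lowest, in control fish 3, and the groups overlapped. By contrast, novel_1447 had 7795, 7222 and 6714 CPM at 18 °C and 7168, 7452 and 7054 CPM at 24 °C, a range of 1.16-fold and the smallest SD between fish of all 94 (0.0814 on the log2 scale). novel_1 was highest in control fish 2, with 4368, 8045 and 3711 CPM at 18 °C and 6085, 3383 and 4627 CPM at 24 °C. The values of novel_42 were 6032, 3755 and 6885 CPM at 18 °C and 4163, 5862 and 3372 CPM at 24 °C, lowest in heat fish 3 and control fish 2. Neither of these 2 separated the temperatures.

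Among the next 3 in abundance, novel_106 stood out in heat fish 3, with 1623, 3126 and 2179 CPM at 18 °C and 2318, 2381 and 4610.1 CPM at 24 °C. The level of novel_70 was 1712, 1287 and 1917 CPM at 18 °C and 2225, 2814 and 1723 CPM at 24 °C, highest in heat fish 2. novel_103 was steadier, with 1628, 2091 and 1449.7 CPM at 18 °C and 1814, 1539 and 1663 CPM at 24 °C. Its highest value was in control fish 2, and the groups overlapped for all 3. The remaining members of the 10 had means of 533 to 617 TPM. novel_120 ran from 457 to 754 CPM and novel_166 from 299.9 to 702 CPM. novel_121 was unlike the others of the 10 in range (27.9-fold from its lowest to its highest library) and is described with the temperature comparison.

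The log2 fold changes of these 10 at 24 °C over 18 °C lay between -0.32 ± 0.29 (SE) for novel_42 and 2.24 ± 1.01 for novel_121, and none passed edgeR's quasi-likelihood test (adjusted p from 0.63 to 0.996). For novel_1447 the 95% interval of -0.31 to 0.30 lay well inside 2-fold. For novel_13 it ran from -0.68 to 0.90. The 5 most abundant took 77.8% ± 1.64 of the counts of the 94 at 18 °C and 75.8% ± 3.32 at 24 °C (two-sided exact permutation p = 0.4). With 3 fish against 3 this p, like that for the share of the 94, cannot go below 0.1. It could not have passed 0.05, and no conclusion is drawn from it. The part of novel_13 alone ran from 29.1% in heat fish 3 to 47.1% in heat fish 2.

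**Figure D2:**
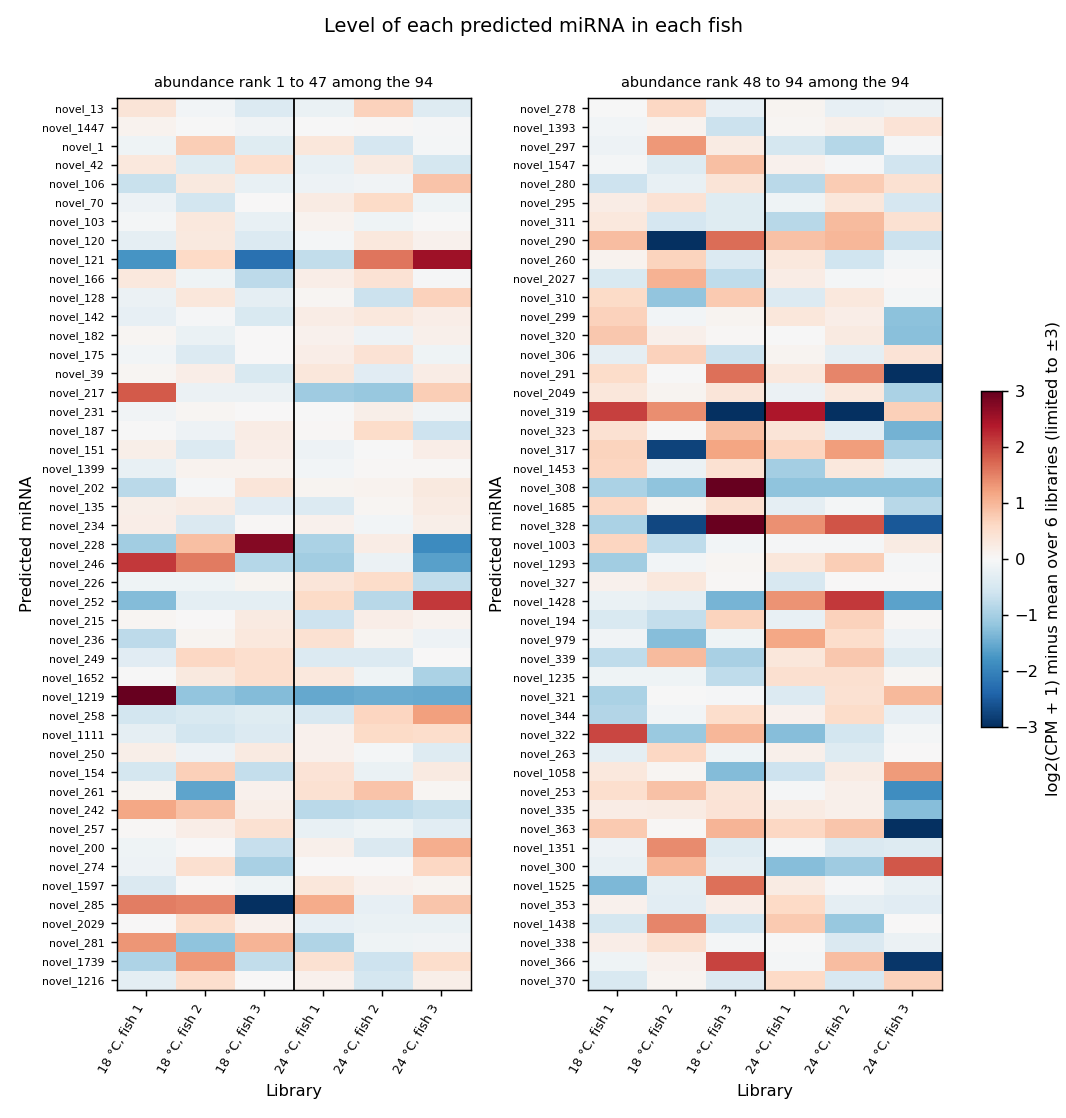
Level of each of the 94 predicted miRNAs in each of 6 libraries, as log2(CPM + 1) minus the row's mean over the 6 libraries (colour, limited to ±3), in order of abundance; the black line separates 18 °C from 24 °C. Rows with 1 or 2 deeply coloured cells, such as novel_1219, novel_308 and novel_319, are RNAs found mainly in, or missing from, 1 or 2 libraries. No block of rows changes colour at the line.

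Most of the 94 were found in every fish. At least 1 count was present in all 6 libraries for 88 of them, at least 10 counts for 84, and at least 10 TPM for 60. The libraries detected 90 (heat fish 3) to 94 (control fish 1) of them. No fish led throughout: control fish 2 and control fish 3 each held the highest value of 21 of the 94, heat fish 2 of 19, control fish 1 of 14, heat fish 3 of 13 and heat fish 1 of 6. The lowest value lay most often in heat fish 3 (23 of 94).

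The spread between fish was measured for each row as the SD of log2(CPM + 1) around its group means. Its median over the 94 was 0.531 (quartiles 0.348 and 0.848), against 0.293 for the 226 annotated rows of at least 10 TPM. The same order held within each range of abundance: 0.432 against 0.233 above 1000 TPM, 0.391 against 0.293 from 100 to under 1000 TPM, and 0.619 against 0.353 from 10 to under 100 TPM. As a coefficient of variation within a group, the medians were 32.3% and 19.7%. An SD of at least 1 was met by 21 of the 94 (22.3%) and 15 of the 226 (6.64%). These are descriptions of 2 sets of rows in the same 6 fish, and the difference was not tested. A limit on the mean over these libraries also admits rows with counts almost only in 1 library, such as novel_1219 and novel_308 below. The rule itself thus adds rows of large SD, and the spread under a limit on the median is not given here. The steadiest after novel_1447 were novel_231 (183, 204 and 197 CPM at 18 °C and 196, 223 and 182 CPM at 24 °C) and novel_1399 (136, 169.8 and 171 CPM at 18 °C and 148, 162 and 163 CPM at 24 °C). Both kept within 1.26-fold over all 6 fish.

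**Figure D3:**
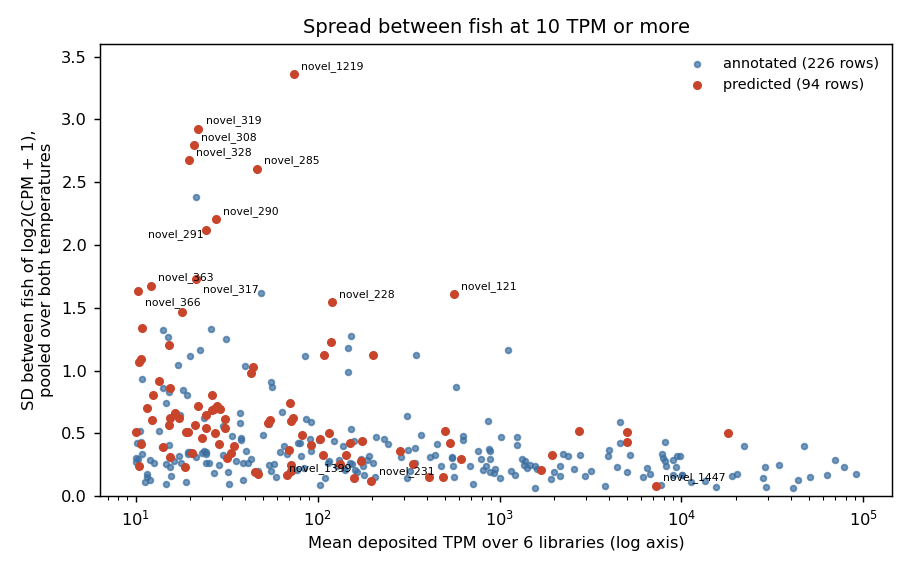
SD between fish of log2(CPM + 1), pooled over both temperatures, against mean deposited TPM (log axis) for the 94 predicted (filled) and 226 annotated rows of at least 10 TPM. The points above an SD of 2 are, apart from 1 annotated row, the predicted novel_1219, novel_319, novel_308, novel_328, novel_285, novel_290 and novel_291, and novel_1447 lies lowest among the predicted rows at 0.0814.

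At the other end stood predicted miRNAs found almost only in, or missing from, the libraries of single fish. With 1 library per fish, a trait of the fish and one of its library cannot be told apart. novel_1219 had 2249, 2 and 2 counts at 18 °C and 1, 1 and 1 at 24 °C, so that control fish 1 held 99.6% of its level. In the same way novel_308 was found almost wholly in control fish 3, with 1, 0 and 595 counts at 18 °C and 0, 0 and 0 at 24 °C. Both reached a mean of 10 TPM through that 1 fish, did not pass the filter on low counts and were not tested between the temperatures. A median of at least 10 TPM over the 6 libraries, in place of the mean, was met by all but 12 of the 94.

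Other members were present in most fish and at or near 0 in 1 or 2. novel_285 had 394, 277 and 0 counts at 18 °C and 298, 92 and 213 at 24 °C, absent from control fish 3 alone. novel_319 had 203, 93 and 0 counts at 18 °C and 267, 0 and 68 at 24 °C, listed at 0 in control fish 3 and heat fish 2. Each of these zeros allows at most the floor of 3 counts, which in control fish 3 is 0.627 CPM. Another 2 libraries, control fish 2 and heat fish 3, were lowest in both novel_290 and novel_328. novel_290 had 168, 1 and 269 counts at 18 °C and 164, 147 and 47 at 24 °C. novel_328 had 17, 1 and 307 counts at 18 °C and 107, 127 and 2 at 24 °C, and was thus far lower than novel_290 in control fish 1. Control fish 2 held 1 count of either and heat fish 3 was their next lowest library. novel_317, chosen after its values were seen, had the same order at the low end (124, 5 and 169 counts at 18 °C and 124, 159 and 32 at 24 °C).

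A further 3 members were at 0 in heat fish 3 only: novel_291 with 114, 55 and 234 counts at 18 °C and 97, 182 and 0 at 24 °C, novel_363 with 80, 33 and 90 counts at 18 °C and 72, 69 and 0 at 24 °C, and novel_366 with 30, 27 and 142 counts at 18 °C and 32, 56 and 0 at 24 °C. All 3 were highest in control fish 3. At most 3 counts in at least 1 library were thus seen for 9 of the 94 (9.57%) and for 1 of the 226 annotated rows of at least 10 TPM (0.442%), a difference that was not tested. Within the 65 members under 100 TPM the count was 9, and within the 94 annotated rows of that range it was 1. The 9 include novel_1219 and novel_308, which reached the limit of 10 TPM through 1 fish each. The 6 members with a 0 all had fish with counts at 18 °C, and all but novel_308 at 24 °C also. Of the 9, novel_1219 had every control fish above every heat fish, but with at most 2 counts in each library except that of control fish 1, which is under the floor. The limit of 3 counts was chosen after the values were seen.

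Between the temperatures, none of the predicted miRNAs passed edgeR's test. Of the 94, 92 passed the filter on low counts and were tested together with all 537 kept rows of the table. With an adjusted p under 0.05, 0 of the 92 were higher at 24 °C, against 0.186% of all tested rows, and 0 were lower, against 0%. An unadjusted p under 0.05 was reached by 3 on the higher side (3.26%, against 3.35% of all tested rows) and by 2 on the lower side (2.17%, against 3.17%). DESeq2 called 0 of the 92 higher (against 0.372% of all rows) and 1 lower, novel_242 (against 0.559%). The 3 heat fish lay fully above the 3 control fish for 4 members (4.35%, against 6.89% of all tested rows) and fully below them for 6 (6.52%, against 5.96%). These shares are near those of the whole table.

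The log2 fold changes of the 92 were centred on 0, with a median of -0.0069 beside 0.0020 over all 537 tested rows, and 44 estimates were positive and 48 negative. A change of at least 2-fold was estimated for 14 of the 92 (15.2%) and for 63 of the 537 (11.7%). The median SE was 0.424 for the 92, 0.276 for the 225 tested annotated rows of at least 10 TPM, and 0.387 for all tested rows. The 95% interval lay inside 2-fold either way for 23 of the 92 (25%, against 31.5% of all 537 tested rows). For the other 69 it passed 2-fold in at least 1 direction. In that direction a change of 2-fold was neither shown nor bounded at this depth and number of fish.

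**Figure D4:**
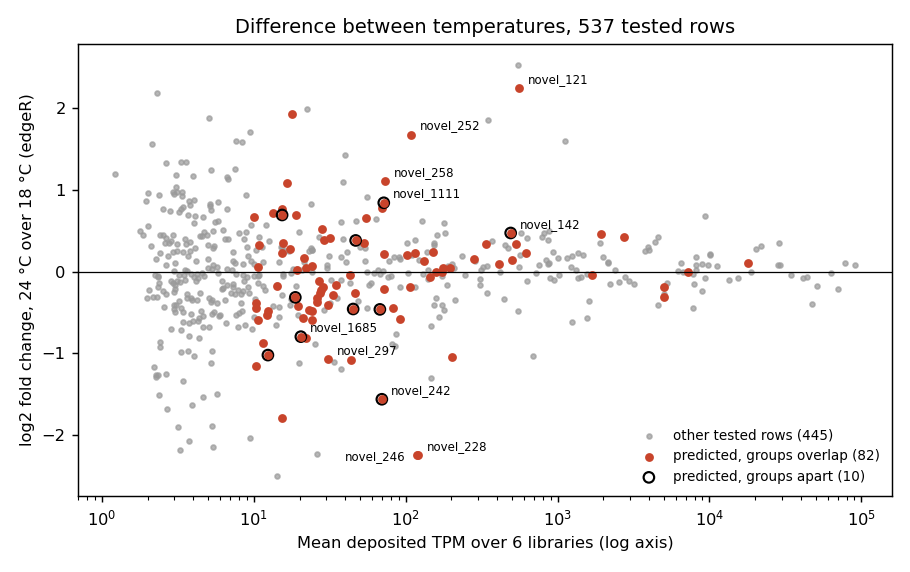
Log2 fold change, 24 °C over 18 °C (edgeR), against mean deposited TPM (log axis) for 537 tested rows; filled red points are the 92 tested predicted miRNAs, and black rings mark the 10 of them whose groups do not overlap. The predicted miRNAs scatter on both sides of 0, from -2.25 (novel_228) to 2.24 (novel_121), and the ringed points lie within 2-fold apart from novel_242 (-1.56) and novel_253 (-1.02).

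On the lower side, the smallest p belonged to novel_242. It had 135, 110.0 and 67.3 CPM at 18 °C and 33.6, 34.8 and 37.2 CPM at 24 °C, and every heat fish lay below every control fish. The mean was 104 ± 34.02 CPM at 18 °C and 35.2 ± 1.87 CPM at 24 °C (SD, n = 3 each), the heat fish lying close together while the highest control fish held 1.998 times the lowest. The fold change on the log2 scale was -1.56 ± 0.31 (SE; 95% interval -2.30 to -0.83; edgeR adjusted p = 0.32). DESeq2 gave an adjusted p of 0.00081, and the log2 fold change kept between -1.82 and -1.29 over the alternatives. Of the 9 marker lists, the striated muscle sum ran most nearly opposite to it (Pearson r -0.92 over 6 libraries, on the log2(CPM + 1) scale). Both had groups that did not overlap, so this r, 1 of 288 computed, in part restates the split between the temperatures. The epithelial list (miR-203, miR-200, miR-205 and miR-429), at 838, 435 and 833 CPM at 18 °C and 405, 435 and 413 CPM at 24 °C, had an r of 0.63. Its rows differed. miR-200b-3p, miR-200a-3p, miR-203b-3p and miR-205b-5p were highest in control fish 1 and 3, miR-200b-3p at 289, 43.3 and 294 CPM at 18 °C. miR-203a-3p was nearly level at 18 °C (199, 210 and 211 CPM), and miR-205a-5p was highest in heat fish 1 and control fish 2. The part of either list in the values of novel_242 was not tested, and in bulk tissue fewer cells of a type and less RNA per cell cannot be told apart.

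Of the next 4 on the lower side, all but novel_1685 had groups that overlapped. novel_246 had 327, 222 and 40.8 CPM at 18 °C and 35.7, 65.6 and 23.5 CPM at 24 °C. Control fish 1 and 2 were high, while control fish 3 lay below heat fish 2. On the log2 scale the difference was -2.24 ± 0.75 (SE; 95% interval -4.02 to -0.46; edgeR adjusted p = 0.63). It was -1.66 without control fish 1, and its r with the striated muscle sum was -0.84. novel_228 had 30.6, 121 and 443 CPM at 18 °C and 33.2, 75.5 and 16.6 CPM at 24 °C, with control fish 3 far above the other 5 and control fish 1 below 2 of the heat fish. On the log2 scale the difference was -2.25 ± 0.98 (SE; 95% interval -4.56 to 0.068; edgeR adjusted p = 0.63), and without control fish 3 it was -0.86. The gonad miRNA miR-202 had nearly the same order, at 12.2, 32.02 and 87.6 CPM at 18 °C and 2.51, 19.998 and 5.54 CPM at 24 °C (Pearson r with novel_228 0.91 over 6 libraries), and its part was not tested. novel_297 (24.3, 68.9 and 32.4 CPM at 18 °C and 18.5, 14.6 and 26.6 CPM at 24 °C) was highest in control fish 2, with a log2 fold change of -1.07 ± 0.47 that was -0.58 without that fish. novel_1685 (30.2, 20.4 and 27.2 CPM at 18 °C and 15.8, 18.6 and 10.4 CPM at 24 °C) had groups that did not overlap and a log2 fold change of -0.80 ± 0.35, and its r with the stromal sum given below was 0.91.

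On the higher side the smallest p belonged to novel_1111, with 56.5, 46.3 and 51.4 CPM at 18 °C and 75.1, 102 and 99.5 CPM at 24 °C. Every heat fish lay above every control fish, and the mean went from 51.4 ± 5.11 to 92.1 ± 14.8 CPM (SD, n = 3 each). The fold change on the log2 scale was 0.84 ± 0.25 (SE; 95% interval 0.26 to 1.42; edgeR adjusted p = 0.59). The striated muscle sum, of whose tested rows miR-499a-5p alone had groups apart, was higher in every heat fish as well (438, 411 and 725 CPM at 18 °C and 1137, 1594 and 2326 CPM at 24 °C; Pearson r 0.93 over 6 libraries). With the groups apart in both, this r in part restates the split between the temperatures. The part of that sum in the values of novel_1111 was not tested. novel_142, the most abundant member whose groups did not overlap, had 411, 473 and 353 CPM at 18 °C and 561, 601 and 551 CPM at 24 °C. On the log2 scale the difference was 0.47 ± 0.18 (SE; 95% interval 0.038 to 0.90; edgeR adjusted p = 0.63), and its strongest r with a list was -0.90, with the epithelial sum. For novel_258 the values were 42.96, 46.3 and 49.1 CPM at 18 °C and 45.3, 100.2 and 152 CPM at 24 °C, so heat fish 1 lay within the control range and the other two above it. The fold change on the log2 scale was 1.10 ± 0.43 (SE; 95% interval 0.097 to 2.11; edgeR adjusted p = 0.63), and 0.66 without heat fish 3. Its r was 0.93 with the red cell sum given below and 0.86 with the striated muscle sum, and their part was not tested.

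The 2 other members of small p on the higher side were highest in heat fish 3. novel_252 had 29.6, 60.8 and 61.1 CPM at 18 °C and 112, 41.6 and 329 CPM at 24 °C, with a log2 fold change of 1.67 ± 0.72, and heat fish 2 lay within the control range. Without heat fish 3 its log2 fold change was 0.60, and its strongest r with a list was -0.87, with the stromal sum. novel_121 had 83.2, 437 and 60.2 CPM at 18 °C and 174, 882 and 1682 CPM at 24 °C. Its highest values were in heat fish 3 and heat fish 2, but control fish 2 lay above heat fish 1. The log2 fold change of novel_121 was 2.24 ± 1.01 (SE; 95% interval -0.14 to 4.62; edgeR adjusted p = 0.63), the largest positive estimate among the 92. It was 1.45 without heat fish 3 and 3.61 without control fish 2. The red cell miRNA miR-144, summed over both arms, followed nearly the same order, at 481, 869.9 and 383 CPM at 18 °C and 405, 1604 and 3052 CPM at 24 °C. Most of that sum was the 5p arm. The 3p arm did not follow that order, at 40.4, 19.9 and 27.4 CPM at 18 °C and 17.6, 38.6 and 36.8 CPM at 24 °C. The Pearson r of novel_121 with the sum of both arms was 0.95 over 6 libraries, a description of points that share library and depth, and the largest of 288 such values (32 members against 9 marker lists). No annotated row used here carried the name of the list's other family, miR-451, and the part of red cells in the values of novel_121 was not tested.

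Beside novel_242, novel_1685, novel_1111 and novel_142, the groups did not overlap for 6 further tested members, named after their values were seen. novel_1597 had 34.1, 45.7 and 42.2 CPM at 18 °C and 59.04, 50.6 and 49.2 CPM at 24 °C, and novel_1235 had 13.5, 13.5 and 8.37 CPM at 18 °C and 20.8, 20.9 and 15.3 CPM at 24 °C, both higher at 24 °C in every fish. On the lower side novel_257 had 67.7, 75.9 and 91.6 CPM at 18 °C and 56.9, 60.2 and 53.4 CPM at 24 °C and novel_2029 had 44.3, 63.8 and 48.5 CPM at 18 °C and 37.2, 38.1 and 38.6 CPM at 24 °C. The 3 heat values of novel_2029 were close together, within 1.04-fold. novel_327 (20.8 ± 2.35 CPM at 18 °C, 16.7 ± 3.28 CPM at 24 °C; SD, n = 3 each) and novel_253 (16.7 ± 3.29 and 8.21 ± 5.25 CPM) were lower as well. The heat values of novel_253 were 10.4, 12.0 and 2.22 CPM, the last, of heat fish 3, from 10 counts. The edgeR adjusted p of these 6 lay between 0.63 and 0.84, and their log2 fold changes ran from -1.02 (novel_253) to 0.69 (novel_1235).

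**Figure D5:**
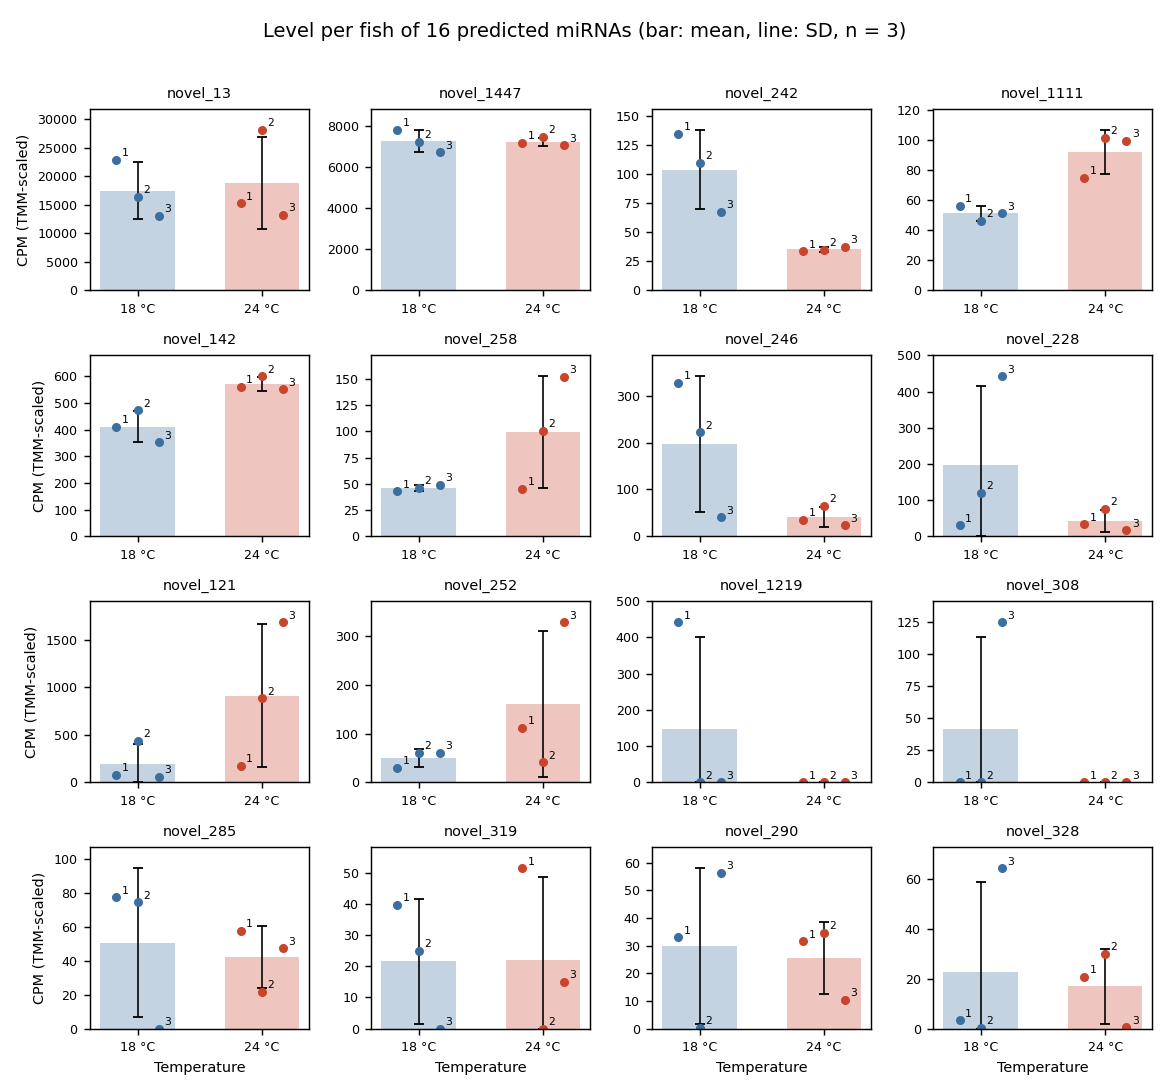
Level per fish (CPM, TMM-scaled, linear axes from 0) of 16 predicted miRNAs at 18 °C and 24 °C; points are fish with their replicate number, bars the mean and lines the SD (n = 3, drawn no lower than 0). novel_242, novel_1111 and novel_142 have groups fully apart, novel_121 and novel_252 are highest in heat fish 3, and novel_1219 and novel_308 in 1 control fish each; the 16 were chosen after their values were seen.

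Among the members near absent in a fish, some had closely similar profiles over the 6 libraries, a comparison added, like those with marker lists, after the values were seen. The Pearson r of log2(CPM + 1) was 0.98 for novel_291 with novel_363 and 0.98 for novel_290 with novel_317. Each is the best of 93 other members, over 6 points that share library and depth. Each pair also shared a near-empty library. In heat fish 3 novel_291 and novel_363 had 0 counts, and in control fish 2 novel_290 had 1 and novel_317 had 5. That shared low value raises an r over 6 points, so the r says little about the other libraries. Stromal miRNAs (miR-143, miR-145, miR-199 and miR-214) summed to 80615, 55782 and 75970.4 CPM at 18 °C and 59370.4, 69139 and 46408 CPM at 24 °C. Most of that sum was miR-143-3p, at 62803, 39422 and 58338 CPM at 18 °C and 40349, 52943 and 29118 CPM at 24 °C. miR-214-5p had nearly its order, but miR-199a-3p did not, at 2788, 4533 and 3318 CPM at 18 °C and 5270, 3547 and 4302 CPM at 24 °C. The abundant novel_42 followed nearly the order of the sum with an r of 0.95, a part that was likewise not tested. An r with the stromal sum, here or above, thus describes mainly miR-143-3p.

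The limit of 10 TPM fell within a continuous range. Just inside it were novel_338 (10.4 TPM), novel_366 (10.3 TPM) and novel_370 (10.03 TPM), and just outside were novel_346 (9.65 TPM), novel_341 (9.39 TPM) and novel_451 (9.39 TPM). The numbers in the names were related to abundance. Of the 6 rows numbered up to 100, 5 reached the limit, as did 15 of the 17 from 101 to 200, 30 of the 34 from 201 to 300 and 20 of the 44 from 301 to 400. From 401 to 900 it was 0 of 286. Above 900, 24 of 602 reached it, led by novel_1447, whose number gives no hint of its rank among predicted rows, the second.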

How the data were processed

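Small RNA libraries from the head kidney of 6 trout were analysed, grouped by their titles and the design text (3 at 18 °C, 3 at 24 °C). The table deposited by the authors holds read counts per row (whole numbers) and TPM. By the values, the deposited TPM equals the CPM computed from the count and the library's total over all rows (largest difference 2.33e-10). Bowtie, with no version, is the aligner listed in the submitters' processing notes. The sources used here name neither the prediction program nor a genome build nor the treatment of reads that match several rows, and reads of near-identical copies may be shared between rows.

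The members and lists were chosen with earlier results of these data known. The test between temperatures used the counts in edgeR 4.0.16 (R 4.3.3): filterByExpr (minimum count 10, minimum total 15) kept 537 rows, which held 99.9% of all counts. TMM scaling was followed by a robust quasi-likelihood fit of heat against control and Benjamini-Hochberg adjustment over the 537 rows, with a threshold of 0.05. SEs are the log2 fold change over the root of F. For shares, an exact permutation test over the 6 libraries, two-sided, was used. The code was tested on simulated data, with a pass limit that was set after a first run. Each library is 1 of 3 females per temperature, per the design text, so p-values measure the spread between fish. Intervals of shares and floors cover counting error only.

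Named members are the 10 most abundant, those called by either tool, the 5 of smallest p per direction, those of largest and smallest spread, those with a 0, those beside the limit of 10 TPM, any with counts identical to another row in all 6 libraries (there were none) and those of largest ratio within a group. Alternatives were other scalings, filters, tools (DESeq2 1.42.0, limma 3.58.1 with voom or on log2(TPM + 1) and log2(TPM + 10)), a fit of predicted rows only, a fit that is not robust, a replicate block, other limits for members, and each library left out. Figures were drawn with matplotlib 3.10.9.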

Additional observations from a re-analysis of the deposited data

How the results depend on the processing

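Members called at an adjusted p under 0.05 numbered 0 on the higher side under every alternative run and 0 on the lower side under every one but DESeq2 (1, novel_242). A limit of 0.10 on edgeR's adjusted p gave 0 as well, while DESeq2's adjusted p was 0.0876 for novel_1111 (higher) and 0.0876 for novel_246 (lower); the cause of that difference between the tools was not tested. The median log2 fold change of the members lay between -0.072 and 0.12, the latter for the 40 tested members of at least 50 TPM, and the cause was not tested. Members with groups apart numbered 6 to 12 higher and 10 to 19 lower without a library, where fewer samples make full separation easier. The share over all tested rows is not given for those fits, so these counts cannot be judged as many or few. With all 6 libraries, 10 higher and 10 lower were apart with a limit of 5 TPM (142 tested). With a limit of 50 TPM (40 tested) it was 2 and 2. Of all 537 tested rows, 6.89% were apart higher and 5.96% lower. Leaving out a library put the difference in the share of counts at -0.18 to 0.40 percentage points, and it turned sign without control fish 3 or heat fish 2. For the share of the 5 most abundant it was -1.98, against 1.00 for the single most abundant and 0.76 for the 10. The median SD between fish was 0.476 to 0.572 without a library; it was lowest without heat fish 3 and highest without control fish 1. With the replicate number as a block, 0 members were called higher and 0 lower, as without it, and the median was 0.037. No pairing of the fish was seen: same-numbered fish did not deviate together (correlations of -0.059, -0.20 and -0.17), and 0 of the 3 control fish correlated best with their own number. Among 540 values of named members in other settings, 43 changed sign, none of them called and none with a reported log2 fold change larger than 0.528. Depth limits what an absence in a fish can show to the floor of 3 counts. The limits of 10 counts, of at least 10 counts in every library and the share without novel_13 were added after seeing the data.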

Other observations

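Rows found almost only in the library of a single fish also occurred among predicted rows under 10 TPM. The rows in this paragraph were chosen after their values were seen, and no test was made. novel_1432 had 275, 2 and 2 counts at 18 °C and 1, 1 and 1 at 24 °C, which in the 5 libraries other than control fish 1 are the same counts as those of novel_1219. Control fish 1 held 97.1% of its level. Over all rows with a total of at least 100 counts, at most 1 count in at least 1 library was seen for 19 of 185 predicted rows (10.3%) and 1 of 268 annotated rows (0.373%). These sets were not matched for abundance, and a low count in 1 library is likelier for a rare row. At 1000 TPM or more there were 7 predicted and 67 annotated rows, and from 100 to under 1000 TPM 22 and 65. The 1 annotated row of at least 10 TPM with at most 3 counts in a library was miR-489-3p, which is hosted in the calcitonin receptor gene in mammals, with 6, 6 and 24 counts at 18 °C and 11, 3 and 506 at 24 °C. It was highest in heat fish 3, the fish in which 0 counts were listed for novel_291, novel_363 and novel_366.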
